A study of Mus musculus with 6 samples.

Results

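The mitochondrial solute carriers of the SLC25 family, with the uncoupling proteins that belong to it, were examined in primary cardiomyocytes of neonatal mice (NMCMs). The carriers were the rows of the count table named Slc25a with a number, or Ucp1, Ucp2 or Ucp3, with at least 60 counts summed over the 6 libraries. Of 56691 gene rows, 50 had such a name and 43 reached 60 counts, and all 43 passed the filter on low counts and were tested. In the tested group the cells received Ad5-cTNT-HMGB2, an adenovirus with HMGB2, a DNA-bending chromatin protein (genotype label HMGB2 overexpression, 3 libraries). In the other group they received the Ad5-cTNT vector (genotype label Control, 3 libraries), so both groups were infected. The name cTNT is that of cardiac troponin T, whose promoter is active in cardiomyocytes. The sources used here give no strain, age in days, virus dose or time of collection. They do not say whether the replicates are separate cultures either, so the p-values measure only the spread between these libraries, which may be technical.

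SLC25 carriers sit in the inner mitochondrial membrane, which is otherwise closed to most metabolites, and each exchanges or imports a small set of substrates. Through them a heart cell sends ATP out and takes ADP and phosphate in, brings in fatty acids as acylcarnitines, and passes the electrons of cytosolic NADH inward by the malate-aspartate shuttle. Others carry the cofactors, amino acids and iron that mitochondrial enzymes need. Uncoupling proteins of the same family are known for proton leak, most of all in brown fat.

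The libraries held 14497676 to 16618365 counts with HMGB2 and 12498215 to 14101385 counts with the vector. Hmgb2 itself stood at 175, 196 and 182 CPM (counts scaled to library size) in HMGB2 libraries 1, 2 and 3, against 46.8, 44.8 and 36.3 CPM in vector libraries 1, 2 and 3, as the labels say. On the second principal component (14.3% of the variance) HMGB2 3 (10.5) and vector 1 (14.2) lay apart from the other libraries (-8.47 to -4.37). The long sarcomere transcript Ttn was low in both, at 3101, 2989 and 1273 CPM in HMGB2 libraries 1, 2 and 3 and 833, 2217 and 2465 CPM in vector libraries 1, 2 and 3. Of the 43 carriers, 30 were higher in HMGB2 3 than in the mean of HMGB2 1 and 2, with a median log2 difference of 0.06 (0.01 over all genes tested), and 29 of 43 were higher in vector 1 than in the mean of vector 2 and 3, with a median of 0.09 (0.02 over all genes tested). Both held for 20 of the 43, a joint count that was not taken over all genes. Over the 15429 genes tested, 7867 were higher in HMGB2 3 and 8058 in vector 1 by the same measure. The part of this in the results was not tested. Vector 1 and HMGB2 3 were picked out from these same data. Fits without both keep only HMGB2 1 and 2 and vector 2 and 3, the more alike libraries of each group. In that fit 3265 of all genes rose and 2986 fell, against 2224 and 1662 in the main fit. A lower adjusted p there is no separate support for a gene that did not pass.

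With HMGB2, 13 of the 43 carriers rose, 4 fell and the other 26 stayed above the threshold, an edgeR adjusted p of 0.05. Those 17 are 39.5% of the carriers, where 25.2% of the 15429 genes tested were called. The 13 that rose are 30.2% of the carriers beside 14.4% of all genes, and the 4 that fell are 9.3% beside 10.8% of all genes. In 22 carriers (51.2%) the libraries of the groups did not overlap, as they did not in 40.5% of all genes. The median log2 fold change was 0.09 over the carriers and -0.0022 over all genes tested, with changes in both directions. Among those that rose are carriers of nucleotides and cofactors (Slc25a4, Slc25a23, Slc25a42, Slc25a36), amino acids (Slc25a12, Slc25a13, Slc25a22, Slc25a40), carnitine (Slc25a20) and dicarboxylates (Slc25a10, Slc25a11), with Slc25a48. All 4 that fell carry nucleotides or cofactors (Slc25a24, Slc25a32, Slc25a33, Slc25a51). Leaving out vector 2 left 8 carriers that rose, and leaving out both vector 1 and HMGB2 3 gave 18. Leaving out vector 2 or HMGB2 2 left 2 carriers that fell.

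**Figure D1:**
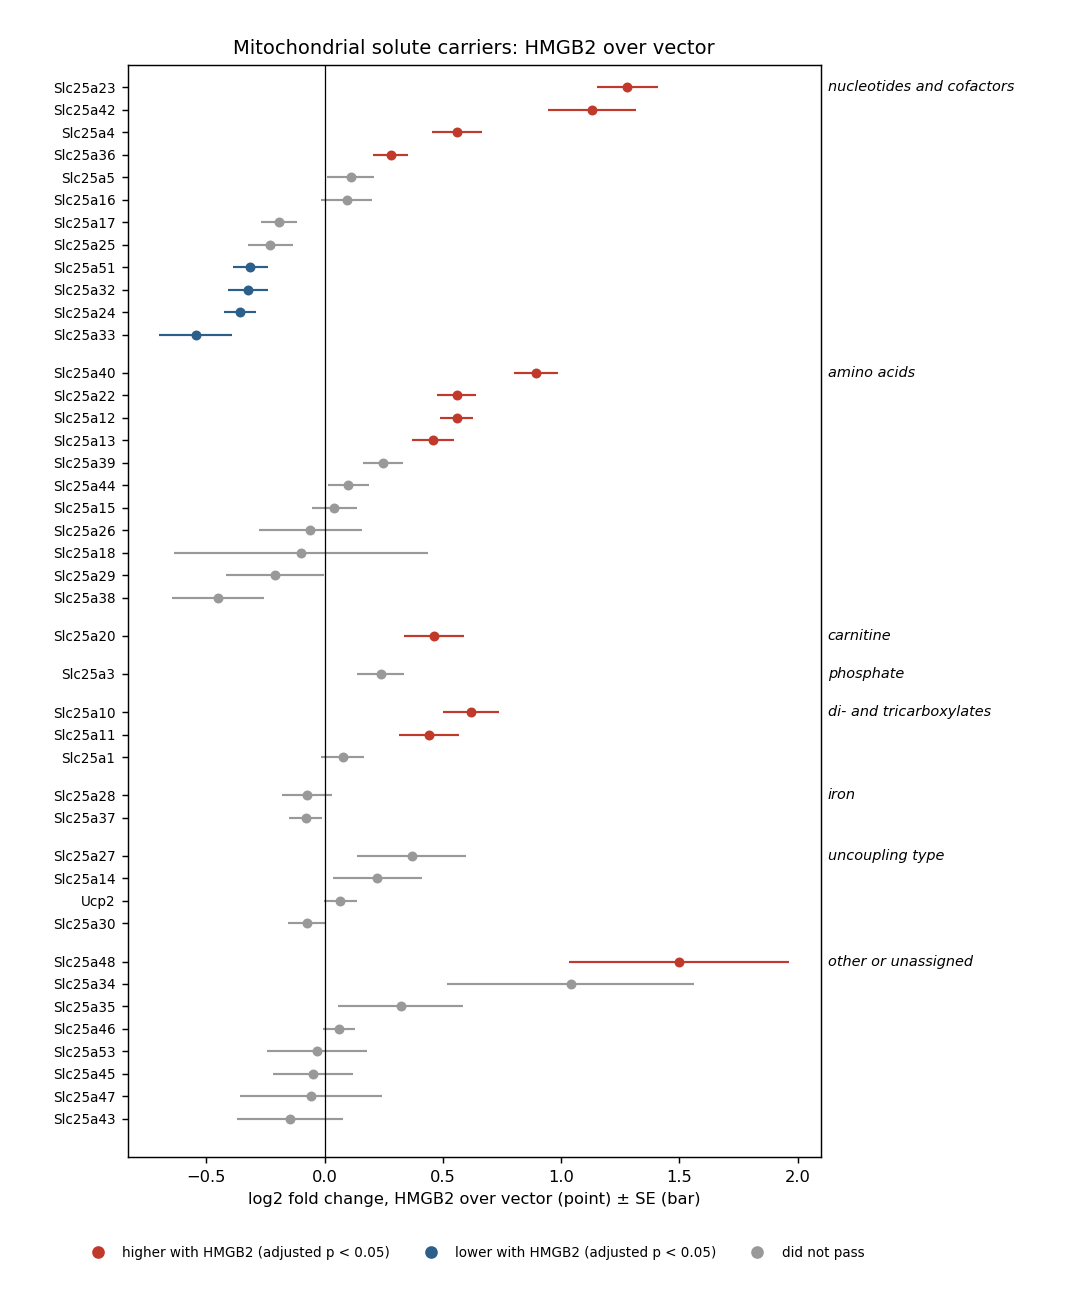
Log2 fold change of HMGB2 over vector (x axis) with its SE for the carriers reported here by name, grouped by substrate, from 3 libraries per group. Carriers that rose are red and the 4 that fell are blue, and the grey points did not pass the threshold.

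Some carrier exons overlap genes on the other strand or have near copies, so their reads may be shared. Slc25a10 and Slc25a23 overlap antisense transcripts over 6.6% and 3.2% of their exon bases, and Slc25a26 overlaps Lrig1 over 3.0%. Of the Slc25a12 and Slc25a40 transcripts, 3.9% and 6.9% match Adpgk and Gm5066 at 99.6% and 99.7% identity. Lrig1 held 1595 to 2289 counts per library, where Slc25a26 held only 52 to 86. Adpgk held 519 to 633 counts and Gm5066 1 to 6. The part of shared reads in these carriers was not tested.

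The cultures are not pure cardiomyocytes, and markers of cell types differed between the groups. Cardiomyocyte markers went in the direction of the carriers that rose. Fibroblast, endothelial and macrophage markers went mostly the other way, with median log2 fold changes of -0.18, -0.15 and -0.32. Of those tested, 25.0%, 28.6% and 42.9% fell, beside 10.8% of all genes tested. Of 10 cardiomyocyte markers, 8 rose (80.0%, beside 14.4% of all genes tested), with a median log2 fold change of 0.68 over the 10. Their summed level was 15280 to 18250 CPM with HMGB2, against 9207 to 11350 CPM with the vector. The number that rose was 7 with vector 2, vector 3, HMGB2 1 or HMGB2 2 left out, and 8 with vector 1 or HMGB2 3 left out. Of 8 fibroblast markers, 2 fell, with a summed level of 4404 to 4497 CPM with HMGB2 and 4954 to 5028 CPM with the vector, and the number that fell was 1 with HMGB2 1 or HMGB2 2 left out and 4 with vector 1 left out. Of 7 endothelial markers, 2 fell (2320 to 2388 CPM with HMGB2, 2673 to 2720 CPM with the vector), and both calls were lost with vector 2, vector 3, HMGB2 1 or HMGB2 2 left out and 1 of them with vector 1 left out. With both vector 1 and HMGB2 3 left out, 6 of the fibroblast markers fell and 10 of 10 cardiomyocyte markers rose. In that setting 5 of the endothelial markers fell and 1 rose. Of the 7 macrophage markers tested, 3 fell, and all 8 summed to 77.1 to 88.5 CPM with HMGB2 and 99.5 to 134 CPM with the vector. With vector 2 left out 1 of them fell, and with HMGB2 2 left out 2 did. Of 6 smooth muscle markers, 1 rose and 1 fell, and 2 fell with vector 1 left out. They summed to 1215 to 1328 CPM with HMGB2 and 1239 to 1340 CPM with the vector. The part of cell composition in the values of the carriers was not tested, and in bulk RNA fewer cells of a type and less RNA per cell cannot be told apart. The log2 fold changes of the cardiomyocyte markers ran from 0.33 to 1.44. Of the carriers that rose, only Slc25a23, Slc25a42, Slc25a40 and Slc25a48 were above the marker median. Slc25a23, Slc25a42 and Slc25a40 lay within the marker range, and Slc25a48, with few counts, lay above it. What sets a carrier above or below the median was not tested.

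Levels between genes are compared in FPKM, which is per length. Slc25a4 was the most abundant carrier with HMGB2, at 392.4 ± 42.8 FPKM, followed by Slc25a5 (296 ± 23.2) and Slc25a3 (107 ± 10.4). With the vector, Slc25a5 (271 ± 36.6 FPKM) was slightly above Slc25a4 (263 ± 34.2) in every library, with means closer than their SDs. Slc25a3 followed (89.2 ± 10.5, SD with n = 3 per group throughout). These 3 genes made up 66.0% to 68.8% of the summed FPKM of all carriers in the HMGB2 libraries, against 63.4% to 66.4% in the vector libraries. Behind them came Slc25a11, Slc25a39, Ucp2 and Slc25a1, each between 34.2 and 43.2 FPKM with HMGB2 and between 31.4 and 34.5 FPKM with the vector, whose vector levels lie within their spread of each other. At the other end, Slc25a18, Slc25a34, Slc25a35, Slc25a47, Slc25a48 and Slc25a53 were below 0.6 FPKM in both groups.

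The adenine nucleotide translocases exchange ATP made in the matrix for cytosolic ADP. Slc25a4, the ANT1 form of heart and skeletal muscle (ENSMUSG00000031633, GRCm38 chromosome 8, 46206797 to 46211284, minus strand), stood at 876, 854 and 1025 CPM in HMGB2 libraries 1, 2 and 3, against 712, 591 and 567 CPM in vector libraries 1, 2 and 3. Every HMGB2 library lay above every vector library, and HMGB2 3 and vector 1 were the highest of their groups. Slc25a4 rose 1.47-fold (log2 fold change 0.56, SE 0.11, edgeR adjusted p = 0.00455) and kept its call in all 20 alternatives. Slc25a5, the ANT2 form that is common in dividing cells (ENSMUSG00000016319, chromosome X, 36795651 to 36798807), had 473, 459 and 524 CPM with HMGB2 and 516, 415 and 417 CPM with the vector. The groups overlapped because vector 1 was as high as the HMGB2 libraries, and the log2 fold change of 0.11 (SE 0.10) did not pass (edgeR adjusted p = 0.466). Without vector 1 it was 0.22 and passed (edgeR adjusted p = 0.0444), and without both vector 1 and HMGB2 3 it was 0.17 (adjusted p = 0.000408). No stretch of 100 bases or more was shared between Slc25a4 and Slc25a5 at 97% identity, while the pseudogene Gm5560 matches 71.5% of the Slc25a5 transcript at 98.3% and held 5 to 25 counts per library, so reads of Slc25a5 and Gm5560 may be counted for each other.

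The balance of both translocases differed more evenly between the groups than either level. Slc25a4 made up 56.4%, 56.5% and 57.7% of the FPKM of Slc25a4, Slc25a5 and the testis form Slc25a31 in HMGB2 libraries 1, 2 and 3, against 49.1%, 49.9% and 48.8% in vector libraries 1, 2 and 3. The mean share was 56.9% ± 0.737 with HMGB2 and 49.3% ± 0.582 with the vector, a difference of 7.63 percentage points that is larger than the spread within either group. HMGB2 3 had the highest share of its group, and vector 1 lay between the other vector libraries. The two-sided exact permutation p of 0.1 is the smallest that 3 against 3 libraries can give (0.2 after Benjamini-Hochberg adjustment over the 6 shares compared).

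A shift between related genes was also seen in the ATP-Mg/phosphate carriers, calcium-regulated proteins that load the matrix with adenine nucleotides. Slc25a23 (ENSMUSG00000046329, GRCm38 chromosome 17, 57043711 to 57059863, minus strand) had 145, 143 and 116 CPM in HMGB2 libraries 1, 2 and 3, against 45.3, 60.2 and 60.9 CPM in vector libraries 1, 2 and 3. The groups were far apart, and HMGB2 3 and vector 1 were the lowest of their groups, the reverse of Slc25a4. Slc25a23 rose 2.43-fold (log2 fold change 1.28, SE 0.13, edgeR adjusted p = 0.000117) and kept its call in all 20 alternatives. Slc25a24, its relative (ENSMUSG00000040322, chromosome 3, 109123149 to 109168457), went the other way, with 73.6, 72.3 and 76.1 CPM with HMGB2 against 93.6, 96.9 and 94.0 CPM with the vector. It fell 1.28-fold (log2 fold change -0.36, SE 0.07, edgeR adjusted p = 0.00391), and it is the only one of the 4 carriers that fell to keep its call in all 20 alternatives. Slc25a25, the third relative, had 25.4 to 30.2 CPM with HMGB2 and 31.7 to 34.6 CPM with the vector, groups that do not overlap, but its log2 fold change of -0.23 (SE 0.10) did not pass (edgeR adjusted p = 0.116, or 0.0428 without both vector 1 and HMGB2 3).

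Per length, Slc25a23 made up 52.0%, 52.6% and 45.8% of these carriers in HMGB2 libraries 1, 2 and 3, against 21.2%, 26.0% and 26.6% in vector libraries 1, 2 and 3. Its mean share was 50.1% ± 3.76 with HMGB2 and 24.6% ± 2.94 with the vector, and that of Slc25a24 was 42.7% with HMGB2 and 65.2% with the vector. Slc25a23 was therefore the more abundant form with HMGB2 in 2 of 3 libraries, with HMGB2 3 at 45.8% against 46.2% for Slc25a24, while Slc25a24 led in all 3 vector libraries. The exact permutation p was 0.1 (0.2 adjusted), again the smallest possible.

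**Figure D2:**
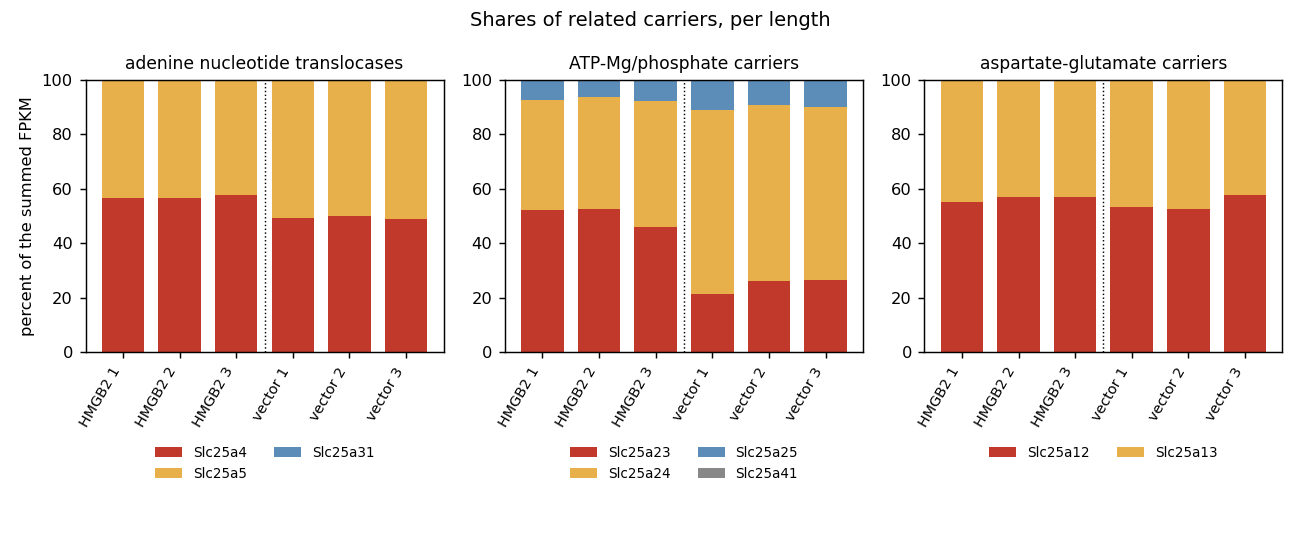
Percent of the summed FPKM (y axis) held by each member of 3 groups of related carriers in each library, with HMGB2 libraries left of the dotted line and vector libraries right of it. The share of Slc25a4 is 56.4% to 57.7% with HMGB2 and 48.8% to 49.9% with the vector, that of Slc25a23 is 45.8% to 52.6% with HMGB2 and 21.2% to 26.6% with the vector, and that of Slc25a12 overlaps between the groups.

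Other carriers of nucleotides and cofactors moved in both directions. Slc25a42, which brings coenzyme A into the matrix in exchange for adenine nucleotides, had 9.92, 10.5 and 7.33 CPM with HMGB2 and 4.41, 4.75 and 3.51 CPM with the vector. The lowest HMGB2 library lay above the highest vector library, a rise of 2.19-fold (log2 fold change 1.13, SE 0.19, edgeR adjusted p = 0.00216). This call held in all alternatives, where the log2 fold change was 0.58 to 1.31.

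Both carriers of pyrimidine nucleotides passed, in opposite directions. Slc25a36 had 118, 126 and 115 CPM with HMGB2 and 92.8, 99.8 and 103 CPM with the vector, and rose 1.21-fold (log2 fold change 0.28, SE 0.07, edgeR adjusted p = 0.0217). The call was lost without vector 2 (adjusted p of 0.0677), HMGB2 1 (0.0713) or HMGB2 2 (0.104), and the pseudogene Gm13217 (13 to 26 counts) is 99.6% identical to part of its transcript. Slc25a33 had 11.9, 8.69 and 10.6 CPM with HMGB2 and 17.6, 15.3 and 12.9 CPM with the vector, so that HMGB2 1 and vector 3 lay close to each other. It fell 1.46-fold (log2 fold change -0.54, SE 0.15, edgeR adjusted p = 0.0297), a call lost without vector 1 (adjusted p of 0.0525), vector 2 (0.0876), HMGB2 2 (0.107) or HMGB2 3 (0.0537). Of its exon bases, 14.9% are shared with Gm13068 on the other strand, which held 1 to 4 counts.

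The other carriers that fell bring redox cofactors into mitochondria. Slc25a51, the importer of NAD, had 67.3, 69.1 and 61.4 CPM with HMGB2 and 83.4, 80.9 and 81.6 CPM with the vector. All HMGB2 libraries lay well below the vector libraries, which were close to each other, and Slc25a51 fell 1.24-fold (log2 fold change -0.31, SE 0.07, edgeR adjusted p = 0.0126, at most 0.0494 with 1 library left out). It lost its call in 2 of the 20 alternatives, among them limma on log2(FPKM + 1) without a filter (adjusted p of 0.0578). Slc25a32, a carrier of FAD and folate, had 22.7, 22.3 and 22.9 CPM with HMGB2 and 27.2, 27.9 and 29.8 CPM with the vector. It fell 1.25-fold (edgeR adjusted p = 0.0211), and the call was lost without vector 2 (adjusted p of 0.0585), vector 3 (0.0804), HMGB2 1 (0.0812) or HMGB2 2 (0.0831). Slc25a17, the cofactor carrier of peroxisomes, had 34.5 to 37.0 CPM with HMGB2 and 39.4 to 41.9 CPM with the vector and did not pass (log2 fold change -0.19, edgeR adjusted p = 0.101), and Slc25a16 (log2 fold change 0.09) overlapped between the groups. Of the 13 nucleotide and cofactor carriers, then, 5 rose (38.5%, beside 14.4% of all genes tested), 4 fell (30.8%, beside 10.8%) and 4 did not pass. The numbers that rose and fell were 3 and 2 without vector 2 or HMGB2 2.

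Promoters of the carriers were searched for 4 short motifs on both strands in windows of 250 bases before to 50 after each RefSeq start (GRCm38.p6), which were found by symbol for 34 of the 43 carriers (43 windows). The E-box CACGTG, read by factors of the MYC and USF type, is in 7 windows of 6 carriers (16.3%) and in 7.15% of all 32851 windows. The cAMP response element TGACGTCA is in 2 carrier windows (4.65%) and in 1.79% of all. The estrogen-related receptor element TCAAGGTCA (0.423% of all windows) and the NRF1 core CGCATGCG (1.87%) are in none, which says only that these letters are not in these windows. The 2 windows of Slc25a14 overlap and hold the same E-box. Of the carriers with a match, Slc25a36, Slc25a13 and Slc25a33 passed the threshold, 2 of them higher and 1 lower. Their stretches of 100 bases are given to show the matches, in capitals, with the first base of the Slc25a36 stretch 200, of the Slc25a13 stretch 150 and of the Slc25a33 stretch 100 bases before the start. They lie on the minus strand at chr9:97111142-97111241, chr6:6217224-6217323 and chr4:149774268-149774367, each printed 5′ to 3′ in the direction of the gene.
Slc25a36: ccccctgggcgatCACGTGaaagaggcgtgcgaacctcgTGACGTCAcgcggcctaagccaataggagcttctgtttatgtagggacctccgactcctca
Slc25a13: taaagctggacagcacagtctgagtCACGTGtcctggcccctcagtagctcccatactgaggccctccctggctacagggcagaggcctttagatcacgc
Slc25a33: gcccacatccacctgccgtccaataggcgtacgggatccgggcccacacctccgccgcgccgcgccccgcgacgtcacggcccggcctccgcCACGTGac
The carriers with a match did not share a direction.

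Among the 11 amino acid carriers, 4 rose, 0 fell and 7 did not pass. The 4 are 36.4% of them, beside 14.4% of all genes tested. The aspartate-glutamate carriers export aspartate from the matrix, the step that drives the malate-aspartate shuttle. Slc25a12, the Aralar form of heart and brain (ENSMUSG00000027010, GRCm38 chromosome 2, 71271063 to 71367749, minus strand), had 133, 131 and 140 CPM in HMGB2 libraries 1, 2 and 3, against 93.8, 87.2 and 93.5 CPM in vector libraries 1, 2 and 3. The libraries of each group were close together and far from the other group, and Slc25a12 rose 1.47-fold (log2 fold change 0.56, SE 0.07, edgeR adjusted p = 0.000424). Slc25a13, the citrin form of liver, had 56.2, 51.3 and 55.2 CPM with HMGB2 and 42.5, 40.8 and 35.3 CPM with the vector, and rose 1.37-fold (log2 fold change 0.46, SE 0.09, edgeR adjusted p = 0.00545). Both forms rose, and the share of Slc25a12 of their FPKM was 56.2% ± 1.05 with HMGB2 and 54.5% ± 2.83 with the vector, a difference within the spread (exact permutation p = 0.4).

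Slc25a22, which carries glutamate with a proton, had 33.7, 36.2 and 36.0 CPM with HMGB2 and 24.7, 24.0 and 23.3 CPM with the vector. It rose 1.47-fold (edgeR adjusted p = 0.00107), while its relative Slc25a18 had only 7 to 17 counts per library with HMGB2 and 3 to 15 with the vector, too few to show a difference (log2 fold change -0.10, SE 0.54). The share of Slc25a22 of the FPKM of both was 94.2% ± 2.64 with HMGB2 and 91.3% ± 4.999 with the vector (exact permutation p = 0.5). Slc25a40 (ENSMUSG00000054099, chromosome 5, 8422850 to 8454797), one of the importers of glutathione, had 40.0, 38.3 and 43.6 CPM with HMGB2 and 20.8, 23.4 and 21.2 CPM with the vector. It rose 1.86-fold (log2 fold change 0.89, SE 0.09, edgeR adjusted p = 0.00013), the largest change among the amino acid carriers. Its relative Slc25a39 is the more abundant of the pair (41.5 ± 2.82 FPKM with HMGB2 and 34.5 ± 3.16 FPKM with the vector) and did not overlap between the groups, with 109 to 122 CPM with HMGB2 and 87.0 to 103 CPM with the vector. Its log2 fold change of 0.25 (SE 0.08) did not pass (edgeR adjusted p = 0.0597) but did without vector 1 (0.0163) and without both vector 1 and HMGB2 3 (0.000818).

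The other amino acid carriers did not pass. Slc25a38, which brings glycine to haem synthesis, had 8.24, 8.14 and 10.2 CPM with HMGB2 and 12.8, 14.9 and 8.80 CPM with the vector, with vector 3 among the HMGB2 values. It did not pass (edgeR adjusted p = 0.123), with a log2 fold change of -0.45 and an SE of 0.19, against -0.64 (adjusted p = 0.0246) without vector 3. Slc25a44 (branched-chain amino acids), Slc25a15 (ornithine), Slc25a26 (S-adenosylmethionine) and Slc25a29 (basic amino acids) overlapped between the groups, with log2 fold changes of -0.21 to 0.10.

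The carnitine carrier Slc25a20 (ENSMUSG00000032602, GRCm38 chromosome 9, 108662088 to 108684641, plus strand) brings acylcarnitines into the matrix and returns free carnitine. It had 37.3, 37.5 and 43.2 CPM in HMGB2 libraries 1, 2 and 3, against 34.4, 26.4 and 25.0 CPM in vector libraries 1, 2 and 3. HMGB2 1 and 2 lay only a little above vector 1. Slc25a20 rose 1.38-fold (log2 fold change 0.46, SE 0.13, edgeR adjusted p = 0.0265), but the call was lost without vector 2 (adjusted p of 0.108), vector 3 (0.0981), HMGB2 1 (0.0541), HMGB2 2 (0.0571) or HMGB2 3 (0.0653), and was kept without vector 1. Without both vector 1 and HMGB2 3 the log2 fold change was 0.54 (adjusted p = 1.72e-05). Of its transcript, 13.3% matches other annotated transcripts at 97% identity or more, none with over 4 counts in a library.

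Among 7 genes of carnitine uptake and transfer, 5 rose, 0 fell and 2 did not pass (Cpt1c and the carnitine importer Slc22a5, log2 fold changes 0.15 and 0.21). The 5 are 71.4% of the list, beside 14.4% of all genes tested. Cpt2, which turns acylcarnitines back into acyl-CoA in the matrix, stood at 69.0 ± 3.20 CPM with HMGB2 and 28.5 ± 2.39 CPM with the vector (2.41-fold, edgeR adjusted p = 1.08e-05). Cpt1b, the muscle form of the enzyme that makes acylcarnitines at the outer membrane, rose 2.06-fold, and Crat, the acetyl-carnitine transferase, 1.76-fold. Crot, the peroxisomal octanoyltransferase, and Cpt1a, the liver form of Cpt1b, rose 1.29- and 1.28-fold (edgeR adjusted p = 0.0139 and 0.0256). Both calls were lost with HMGB2 1 (adjusted p of 0.0674 and 0.102) or HMGB2 2 (0.0574 and 0.0846) left out, where 3 of the 7 genes rose. Cpt2, Cpt1b and Crat had larger fold changes than Slc25a20 and the other 4 genes smaller ones, and these differences were not tested.

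Slc25a3, the phosphate carrier (ENSMUSG00000061904, chromosome 10, 91116574 to 91124059, minus strand), supplies the ATP synthase with phosphate. It had 554, 563 and 649 CPM with HMGB2 and 562, 458 and 477 CPM with the vector. Vector 1 lay among the HMGB2 libraries, and the log2 fold change of 0.24 (SE 0.10) did not pass (edgeR adjusted p = 0.112). Without vector 1 it was 0.33 (edgeR adjusted p = 0.00949), and without both vector 1 and HMGB2 3 it was 0.26 (1.85e-06). These libraries were picked out from the same data, so the lower adjusted p-values are no separate support for a rise. Among alternatives that kept vector 1, Slc25a3 passed only with a term shared by vector 1 and HMGB2 3. Slc25a5 likewise passed only with vector 1 left out or with that shared term.

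**Figure D3:**
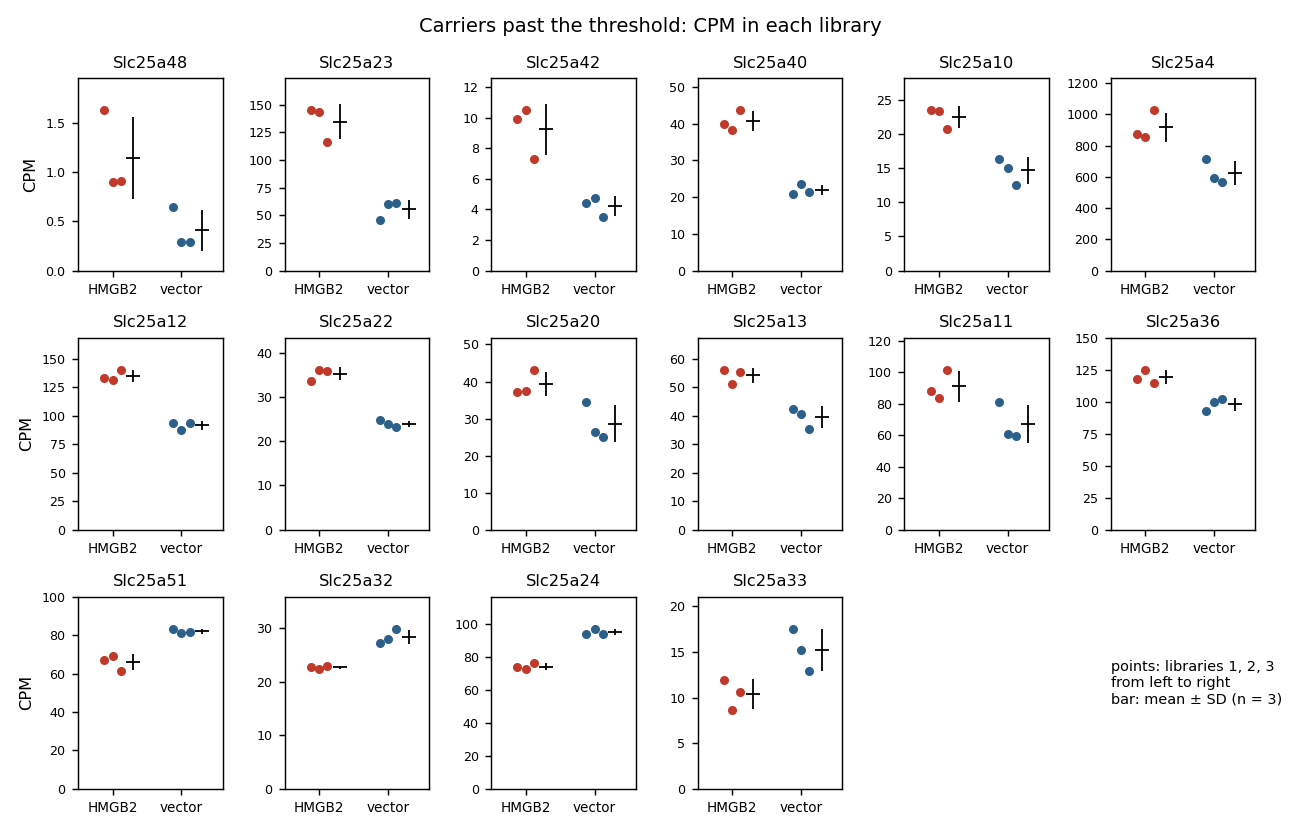
CPM (y axis, from 0) of the named carriers past the threshold in each of the 3 HMGB2 libraries (left, red) and 3 vector libraries (right, blue), with the mean and SD beside the points. In none of those drawn do the groups overlap. Vector 1 is the highest vector library in Slc25a4, Slc25a10, Slc25a11, Slc25a12, Slc25a13, Slc25a20, Slc25a22, Slc25a33, Slc25a48 and Slc25a51. It is not the highest in Slc25a23, Slc25a24, Slc25a32, Slc25a36, Slc25a40 and Slc25a42.

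The di- and tricarboxylate carriers link the citric acid cycle with the cytosol. Slc25a11, the oxoglutarate-malate carrier and the other transporter of the malate-aspartate shuttle, had 87.9, 83.5 and 102 CPM with HMGB2 and 81.1, 60.8 and 59.7 CPM with the vector. HMGB2 2 lay close above vector 1, and the rise of 1.36-fold (log2 fold change 0.44, SE 0.13, edgeR adjusted p = 0.0321) was lost without vector 2 (adjusted p of 0.129), vector 3 (0.117), HMGB2 1 (0.0711) or HMGB2 3 (0.0784). Of its exon bases, 8.9% overlap Rnf167 on the other strand, and whether counting used the strand is not given in the sources used here. Slc25a10, the dicarboxylate carrier that exchanges malate or succinate for phosphate, had 23.5, 23.4 and 20.7 CPM with HMGB2 and 16.4, 15.1 and 12.6 CPM with the vector. It rose 1.54-fold (log2 fold change 0.62, SE 0.12, edgeR adjusted p = 0.00463) and kept its call in all alternatives. Slc25a1, the citrate carrier that feeds cytosolic acetyl-CoA, had 71.7 to 74.7 CPM with HMGB2 and 64.7 to 79.2 CPM with the vector and did not pass (log2 fold change 0.08, edgeR adjusted p = 0.585, or 0.0255 without both vector 1 and HMGB2 3).

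The cytosolic pair of the enzymes of the malate-aspartate shuttle rose beside its carriers. Mdh1, the cytosolic malate dehydrogenase, had 792 ± 81.2 CPM with HMGB2 and 386 ± 53.2 CPM with the vector (2.05-fold, edgeR adjusted p = 0.000175), and Got1, the cytosolic aspartate transaminase, had 244.5 ± 18.0 CPM with HMGB2 and 139 ± 11.2 CPM with the vector (1.76-fold, adjusted p = 0.000151). The mitochondrial enzymes Mdh2 and Got2 had log2 fold changes of 0.22 and 0.17 and did not pass (edgeR adjusted p = 0.0719 and 0.0862), so 2 of the 4 enzymes rose, and 4 of 4 did without both vector 1 and HMGB2 3.

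The mitoferrins, which import iron for haem and iron-sulphur clusters, did not pass. Slc25a37, the form of red cell precursors, had 77.1 to 81.8 CPM with HMGB2 and 81.7 to 88.9 CPM with the vector (log2 fold change -0.08, SE 0.07), and Slc25a28, the form of other tissues, had 18.6 to 21.4 CPM with HMGB2 and 19.3 to 23.1 CPM with the vector (-0.07, SE 0.11). Slc25a37 was the more abundant per length in every library, and Slc25a28 made up 28.9% ± 1.80 of both with HMGB2 and 28.8% ± 1.78 with the vector (exact permutation p = 1). Markers of red cell precursors were all under the filter on low counts, with 0.421 to 0.897 CPM in sum with HMGB2 and 0.160 to 1.17 CPM with the vector, and with Hbb-bt and Hba-a2 at 0 in all libraries. Of 14 tested genes of mitochondrial iron use, 3 rose (the haem synthesis enzymes Alas1, Cpox and Fech, 1.39-, 1.41- and 1.19-fold), 0 fell and 11 did not pass. The 3 are 21.4% of the list, beside 14.4% of all genes tested. The call of Fech (edgeR adjusted p = 0.0372) was kept with vector 1 left out and lost with any other library left out (adjusted p up to 0.145), and 5 of the 14 rose without vector 1.

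No carrier of the uncoupling type passed. Ucp2, the widely expressed uncoupling protein, had 244, 249 and 247 CPM with HMGB2 and 251, 230 and 227 CPM with the vector, and did not pass (log2 fold change 0.07, SE 0.07, edgeR adjusted p = 0.539), against 0.12 (adjusted p = 0.0178) without both vector 1 and HMGB2 3. Slc25a30, Slc25a14 and Slc25a27, relatives of the uncoupling proteins, had log2 fold changes of -0.07, 0.22 and 0.37 that did not pass. Ucp1, the thermogenic form of brown fat, and Ucp3, the muscle form, were below the minimum, with 0 to 2 and 4 to 7 counts per library with HMGB2 and 0 to 4 and 0 to 2 counts with the vector. Of the summed FPKM of Ucp2 and Ucp3, Ucp3 held 0.252% to 0.370% with HMGB2 and 0% to 0.155% with the vector (exact permutation p = 0.1). Of the brown fat markers, Plin1 was at 0 in all libraries and Adipoq had at most 1 count, while Cidea and Ppargc1a, which heart also expresses, rose. Fabp4, which endothelial cells also express, had 135 to 169 CPM with HMGB2 and 119 to 157 CPM with the vector, and Dio2 had 20 to 34 counts with HMGB2 and 12 to 33 counts with the vector. Neither passed, and Elovl3 had 3 to 7 counts in each library.

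Of the 8 carriers with another or no assigned substrate, 1 rose (12.5%, beside 14.4% of all genes tested). Slc25a48 had 27, 13 and 15 counts in HMGB2 libraries 1, 2 and 3, against 8, 4 and 4 counts in vector libraries 1, 2 and 3. The rise (log2 fold change 1.5, SE 0.47, edgeR adjusted p = 0.0417) rests on these few reads and was lost without vector 2 (adjusted p of 0.142), vector 3 (0.139), HMGB2 1 (0.175) or HMGB2 2 (0.0705), and with DESeq2 (0.0609). Slc25a46, the most abundant of the 8 and a protein of the outer membrane that acts in mitochondrial fission and fusion, had 68.8 to 71.0 CPM with HMGB2 and 64.0 to 68.0 CPM with the vector, with a log2 fold change of 0.06 (SE 0.07) that did not pass. Slc25a35 (0.32), Slc25a34 (1.04), Slc25a53 (-0.03), Slc25a45 (-0.05), Slc25a47 (-0.06) and Slc25a43 (-0.15) did not pass either, with SEs of 0.17 to 0.52. For Slc25a35, 31.3% of the exon bases overlap Rangrf on the other strand.

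At the edge of the minimum, Slc25a18 (63 counts in sum) and Slc25a34 (66) were just inside. Slc25a31, the testis form of the translocases, was just outside with 59 counts, namely 10, 19 and 21 with HMGB2 and 6, 2 and 1 with the vector, and Ucp3 followed with 20. The other rows under the minimum were Slc25a2 (16 counts), Ucp1 (8), Slc25a21 and Slc25a41 (3 each) and Slc25a54 (0).

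The partners of ADP/ATP exchange held the largest change among the genes set beside the carriers. In this list of 8 genes, 3 rose (37.5%, beside 14.4% of all genes tested) and 0 fell. Ckmt1, the ubiquitous mitochondrial creatine kinase, had 11.6 ± 0.904 CPM with HMGB2 and 2.71 ± 0.683 CPM with the vector (4.30-fold, edgeR adjusted p = 5.1e-05), and Ckmt2, the sarcomeric form that takes ATP from Slc25a4 to make phosphocreatine, had 80.6 ± 3.60 CPM with HMGB2 and 40.5 ± 1.62 CPM with the vector (1.99-fold, adjusted p = 1.89e-05). Hk1, the hexokinase that binds the outer membrane, rose 1.69-fold, and the channels Vdac1, Vdac2 and Vdac3 had log2 fold changes of 0.25, 0.06 and 0.22 that did not pass. The number that rose was 5 without vector 1 and 7 without both vector 1 and HMGB2 3.

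Of 23 other mitochondrial transport proteins outside the rule, 5 rose, 2 fell and 16 did not pass. The 5 are 21.7% and the 2 are 8.7% of the list, near the 14.4% and 10.8% of all genes tested. Letm1, a cation exchanger of the inner membrane, rose 1.41-fold (edgeR adjusted p = 0.00089), and Abcb8, an ABC transporter of the inner membrane, rose 1.296-fold. Micu2, a regulator of the calcium uniporter, rose 1.17-fold (edgeR adjusted p = 0.0441), which was lost with any library but vector 1 left out (adjusted p up to 0.153). Tspo, an outer membrane protein, rose 1.37-fold (edgeR adjusted p = 0.0355), a call lost without vector 2 (0.139), vector 3 (0.124), HMGB2 1 (0.0762) or HMGB2 3 (0.0866). Sfxn1, a serine carrier, and Sfxn3 fell 1.17- and 1.22-fold, and both calls were lost with each library but vector 1 left out (adjusted p up to 0.184 and 0.145). The number that rose was 8 without vector 1 and 3 without vector 2, vector 3, HMGB2 1 or HMGB2 3. The pyruvate carrier subunits Mpc1 and Mpc2 had log2 fold changes of 0.04 and 0.31 that did not pass. Of 6 tested genes of ornithine and urea metabolism, 1 fell (Arg1, log2 fold change -1.57, edgeR adjusted p = 0.00294). That is 16.7% of them, beside 10.8% of all genes tested. The other 5 did not pass, and neither did the ornithine carrier Slc25a15.

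**Figure D4:**
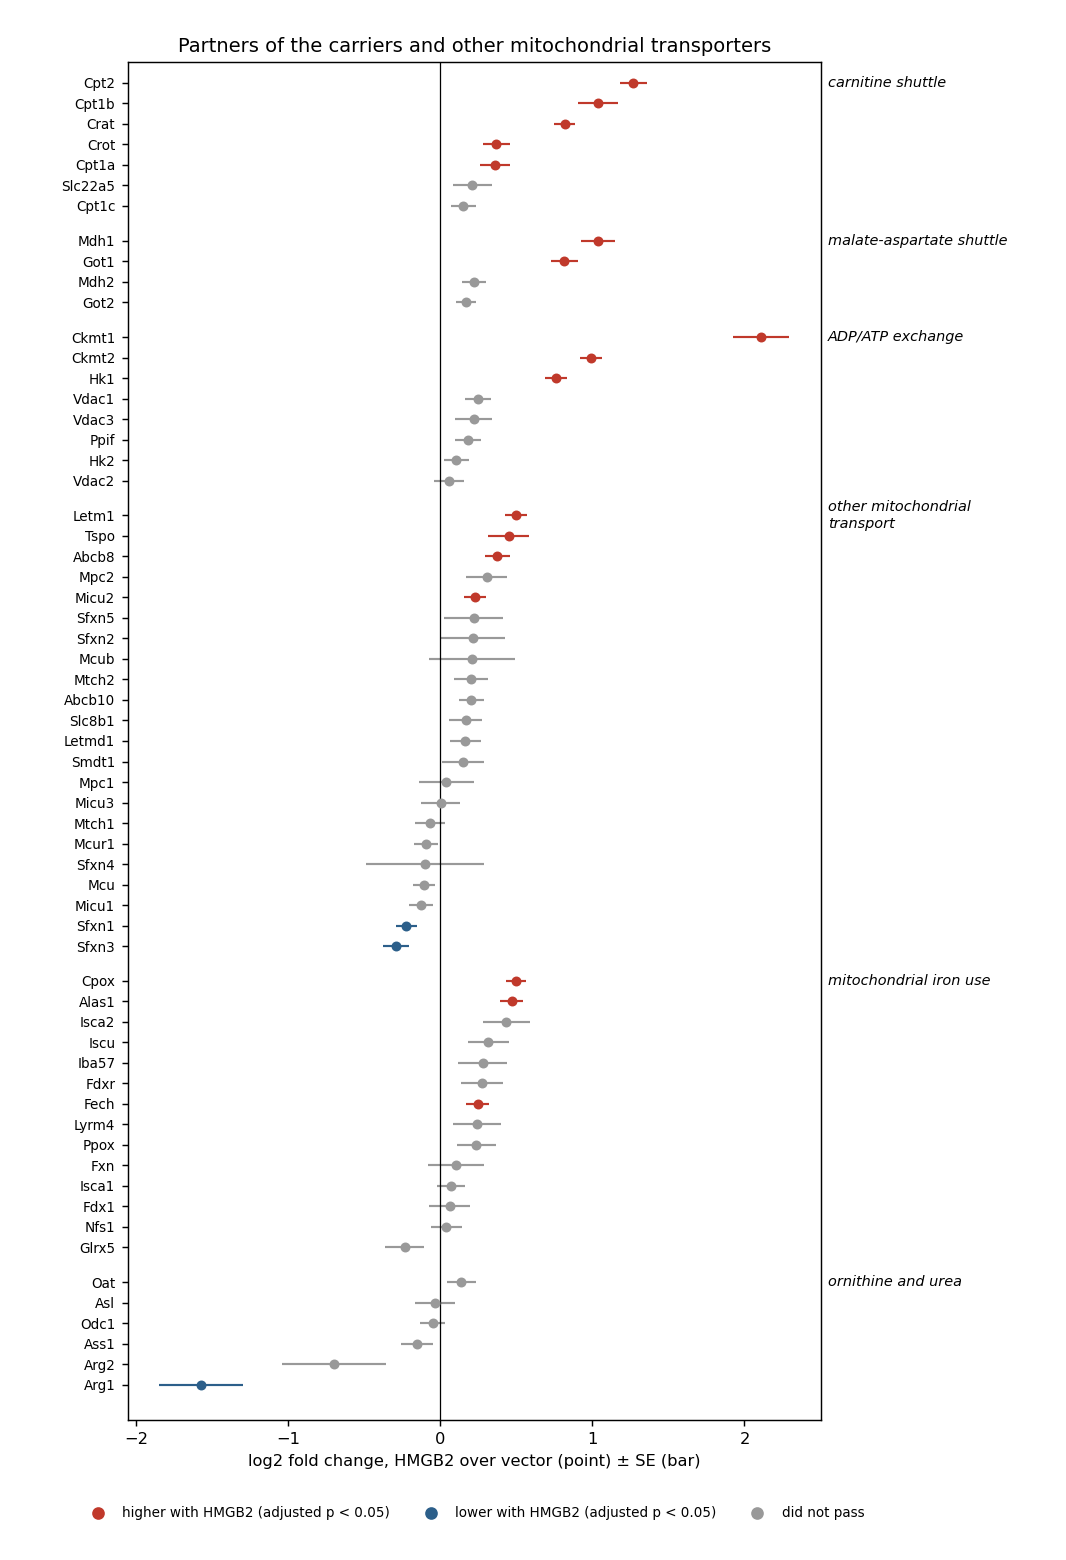
Log2 fold change of HMGB2 over vector (x axis) with its SE for tested genes that act beside the carriers, from 3 libraries per group. Ckmt1 (2.11), Cpt2 (1.27), Cpt1b and Mdh1 (1.04 each) lie farthest to the right and Arg1 (-1.57) farthest to the left.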

How the data were processed

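RNA sequencing counts of 3 HMGB2 and 3 vector libraries were analysed. The authors deposited whole-number counts per Ensembl gene, with a different total in each library, and FPKM values of the same genes, per the file headers. Without giving roles, the submitters' processing notes list mm10 and the tools StringTie 1.3.3b, HTSeq 0.6.1, HISAT2 2.2.1 and FastQC 0.10.1. Gene positions in the tables differ from mm10 annotation, so positions were taken from GENCODE M21 (GRCm38) by Ensembl identifier. Columns were matched to samples by group abbreviation and replicate number, and 0 columns were left unused.

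All genes were fitted with edgeR 4.0.16 in R 4.3.3 (filterByExpr with minimum count 10 and minimum total 15, TMM, robust quasi-likelihood fit, group as the only term), with Benjamini-Hochberg adjustment over 15429 genes and a threshold of 0.05. SEs were taken as the size of the log2 fold change divided by the root of F. CPM are on TMM-scaled library sizes. Shares are of the authors' FPKM, tested by exact two-sided permutation (SciPy 1.17.1). Counts per library limit the precision of rare carriers. Named genes were the carriers past the threshold, the most abundant of each substrate group and, of each partner list, up to 4 with the smallest p. The other carriers are given as values, and further genes of the lists (Cpt1a, Cpt1c, Slc22a5, Tspo, Micu2, Sfxn1, Ttn, Vdac1, Vdac2, Vdac3, Mdh2, Got2, Mpc1 and Mpc2 and the markers of brown fat and red cells) were chosen after their values were seen. Genes that are not reported here by name remain in the counts, medians and sums. The carriers, substrate groups and lists were chosen with earlier results of these data known. Near copies were found with blastn at 97% identity over 100 bases or more. On simulated counts of HMGB2 against vector (15163 genes fitted), the same fit called 42 of 67 genes with a 1.5-fold change, 56 of 67 with a 2-fold and 65 of 66 with a 4-fold change, and 13 unchanged genes. Those counts were drawn for each gene separately, with few genes changed. They hold no shift shared by genes in vector 1 and HMGB2 3, so the rates need not apply to these libraries. The 20 alternatives covered normalization, filter, DESeq2 1.42.0, limma 3.58.1 on counts and on log2(FPKM + 1) or log2(FPKM + 0.1), a replicate block, a term for vector 1 and HMGB2 3, and left-out libraries. No pair of libraries agreed within sampling noise (chi-square per degree of freedom of 2.01 or more). The value was 2.01 for HMGB2 1 and 2 and 2.75 for vector 2 and 3. For pairs of a group that hold HMGB2 3 or vector 1 it was 14.4 to 20.2.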

Additional observations from a re-analysis of the deposited data

How the results depend on the processing

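Of the 17 carriers past the threshold, 9 kept their calls in all 20 alternatives (8 higher, 1 lower), and 10 kept them with each library left out in turn. Of the 26 others, 8 passed in at least 1 alternative. The 13 carriers that rose were 8 in limma on log2(FPKM + 1) without a filter, and 8 to 16 with a library left out. The 4 that fell were 1 in that limma fit, 7 with a term for vector 1 and HMGB2 3, and 2 to 4 with a library left out. Over all genes, 2224 rose and 1662 fell, against 1387 and 671 in that limma fit and 3701 and 3549 with the term. With a library left out, 1567 to 2526 rose and 866 to 1960 fell, and without both vector 1 and HMGB2 3, 3265 rose and 2986 fell. The cause was not tested. The median log2 fold change of the carriers was 0.07 to 0.17 over all alternatives. The share of Slc25a28 in the mitoferrins differed by 0.112 percentage points and ranged from -0.535 to 1.137 with a library left out, changing sign with HMGB2 2 (-0.267), HMGB2 3 (-0.535), vector 2 (-0.524) or vector 3 (-0.273) left out, and the other 5 shares kept their direction.

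With the replicate number as a block, 8 carriers rose and 2 fell (1459 and 754 of all genes), and Slc25a51 was among the carriers that lost their call (edgeR adjusted p = 0.0674). Deviations of same-numbered libraries from their group means had correlations of -0.318, 0.231 and -0.375, against 0.521 for HMGB2 3 with vector 1. The split of vector 1 and HMGB2 3 enters all these deviations, so they cannot show whether same-numbered libraries were prepared together. Depth limits the rare carriers, and for Slc25a48 the counts per library reached 27 at most.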
